A study of Homo sapiens with 21 samples.

Results

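The genes described here encode 10 transporters that carry neutral or cationic amino acids across the plasma membrane. They were chosen by symbol for what they carry, 10 of the 62656 genes in the count table, with earlier results of these data known: SLC7A5, SLC7A1, SLC7A2, SLC7A3, SLC7A6, SLC1A4, SLC1A5, SLC38A1, SLC38A2 and SLC43A1. RNA came from SH-SY5Y, a human neuroblastoma cell line of wild-type genotype, which all groups share, after differentiation for 11 days towards a neuron-like state. Cells were exposed for 24 h to 30 µM of 8:2 FTOH, a fluorotelomer alcohol, 8:2 FTS, a fluorotelomer sulfonic acid, PFDS or PFOS, perfluoroalkyl sulfonic acids with a longer and a shorter chain, or PFDA or PFOA, perfluoroalkyl carboxylic acids with a longer and a shorter chain, or were labelled Control. The final treatment solutions held 1% methanol, and the methanol content of the control is not given in the sources used here. In the sample annotation used here, days of differentiation and exposure time are listed for the compound libraries only. The 21 libraries divide evenly over the 7 groups, 3 to a group, with 1 dose and 1 time for the compounds. The series asks about neurotoxic effects of these per- and polyfluoroalkyl substances (PFAS).

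Amino acid transporters of the plasma membrane work as exchangers, which swap one amino acid for another, or as uniporters and sodium-coupled carriers, which bring amino acids in. Sodium-coupled carriers and the glutamine exchangers build up small neutral amino acids in the cell, and SLC7A5 trades these for large essential ones such as leucine, which are sensed by the kinase complex mTORC1. In neurons the same proteins supply glutamine for glutamate synthesis, arginine for nitric oxide and the aromatic precursors of the catecholamines.

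Total counts per library ran from 7680024 to 30429746, with a median of 14633793. The control libraries held 22179910 to 24905803 counts, and 13 of the 18 compound libraries were below the lowest of them. The mitochondrial share of reads was highest in 8:2 FTOH replicate 3, at 6.11%, and control replicate 3, at 6.33%, the 2 libraries without a column in the authors' normalized table. Of the genes that mark differentiating neurons, GAP43, a growth cone protein, fell in the 6 compounds as a whole (log2 fold change -0.34, edgeR adjusted p = 0.00978), a call lost without control replicate 1 or 2 (adjusted p = 0.126 and 0.203). The neurofilament gene NEFM passed as well (-0.43, adjusted p = 0.0457) but not without control replicate 1, 2 or 3 (adjusted p = 0.204, 0.367 and 0.161), nor without most other single libraries. The summed level of 5 neuron markers was 2394 to 2923 CPM in compound libraries and 2801 to 3019 CPM in control libraries. Cycling cell markers, 3 in number, summed to 1232 to 1618 CPM (median 1339) in compound libraries and 1472 to 1565 CPM (median 1512) in control libraries. The proliferation marker MKI67 among them averaged 733 CPM with the 6 compounds and 856 CPM in control and did not pass in edgeR (log2 fold change -0.23, adjusted p = 0.0966), while DESeq2 called 1 of the 3 for the 6 compounds together and 1 for PFOA. Of the 5 neuron markers DESeq2 called 2 for the 6 compounds together, 2 for PFOA and 1 each for 8:2 FTOH, 8:2 FTS and PFDS. For PFDA and PFOS it called 0 of them. Among 5 noradrenergic markers it called 1, for PFOA. The share of all genes called by DESeq2 is not given here. TH, which makes the catecholamine precursor in noradrenergic cells, was near 0, at 0.59 CPM in control. Defining markers of Schwann cells summed to 7.28 to 11.99 CPM in compound libraries and 8.28 to 10.5 CPM in control libraries. In bulk RNA, fewer cells of a type and less RNA per cell cannot be told apart, and the part of these differences in the results below was not tested.

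Per length, in TPM (reads divided by gene length and scaled to the same total in each library), the 10 genes spanned a wide range of levels in control cells. SLC7A1, the widely expressed uniporter for arginine and lysine, averaged 124 ± 8.21 TPM and SLC38A1, a sodium-coupled carrier of glutamine prominent in neurons, 121 ± 11.1 TPM (SD, n = 3 each), and their control libraries overlapped. SLC38A2, a related carrier that cells induce when amino acids run short, followed at 87.7 ± 2.19 TPM. SLC7A5, the light chain of the exchanger of large neutral amino acids, was at 57.2 ± 5.09 TPM. These 4 genes were the most abundant of the set in every one of the 7 groups.

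The exchangers of small neutral amino acids formed a middle tier in control cells. SLC1A5, which exchanges glutamine, averaged 31.7 ± 1.24 TPM, and SLC1A4, which carries alanine, serine and cysteine, 27.7 ± 3.68 TPM, with overlapping control libraries. SLC7A6, a light chain that trades cationic for neutral amino acids, stood at 8.46 ± 1.74 TPM. Reads in exons shared with other genes were not counted, so the levels of SLC1A5 and SLC7A6 are in part uncertain. The 3 lowest genes were SLC7A2, an arginine transporter best known from liver and macrophages, at 3.91 ± 0.36 TPM, SLC43A1, a uniporter of large neutral amino acids, at 2.83 ± 0.329 TPM, and SLC7A3, a cationic transporter known from brain, at 1.96 ± 0.771 TPM. The last 2 overlapped between control libraries. The order among the 3 lowest genes differed from group to group, and their libraries overlapped there in every group for at least 1 neighbouring pair.

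**Figure D1:**
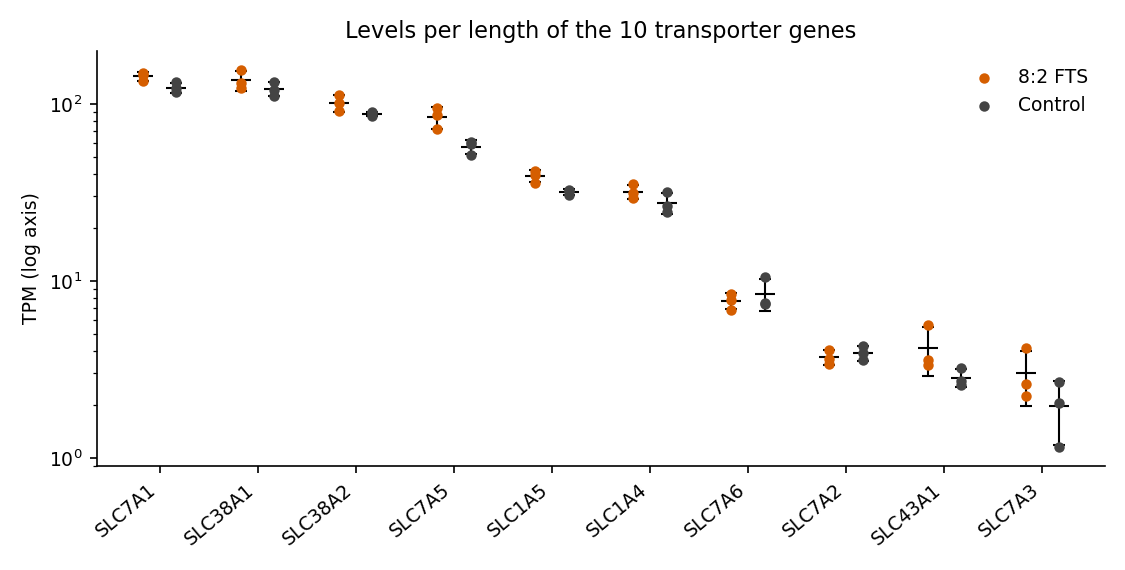
Level per length (TPM, log axis) of each of the 10 genes in the 3 libraries of 8:2 FTS (left of each pair) and of control (right), with mean ± SD bars. Control means run from 124 TPM for SLC7A1 to 1.96 TPM for SLC7A3, and SLC7A5 is the only gene called between the groups shown.

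SLC7A5 (ENSG00000103257; hg38 chromosome 16, 87830023 to 87869507, minus strand) was the only one of the 10 genes to pass the test in any comparison with control. With 8:2 FTS its RNA rose, 1.39-fold. Its level in CPM (reads scaled to the TMM-adjusted library size) was 133, 107 and 145 CPM in the 3 libraries of 8:2 FTS, against 89.4, 88.6 and 98.9 CPM in control. With 8:2 FTOH it was 127, 131 and 115 CPM, with PFDS 120, 110 and 131 CPM, and with PFOS 110, 128 and 126 CPM. All libraries of these 4 compounds were above all control libraries. With PFDA it was 101, 94.3 and 117 CPM and with PFOA 89.2, 99.2 and 98.2 CPM. PFDA had 1 library and PFOA 2 inside the control range, so that 15 of the 18 compound libraries exceeded every control. SLC43A1 also had 15 of 18 above every control, with 2 below all of them. Its log2 fold change for the 6 compounds together was 0.33 (edgeR adjusted p = 0.563). The share of all genes with such a count was not computed. The smallest count behind the levels of SLC7A5 was 889 reads and the largest 3399.

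**Figure D2:**
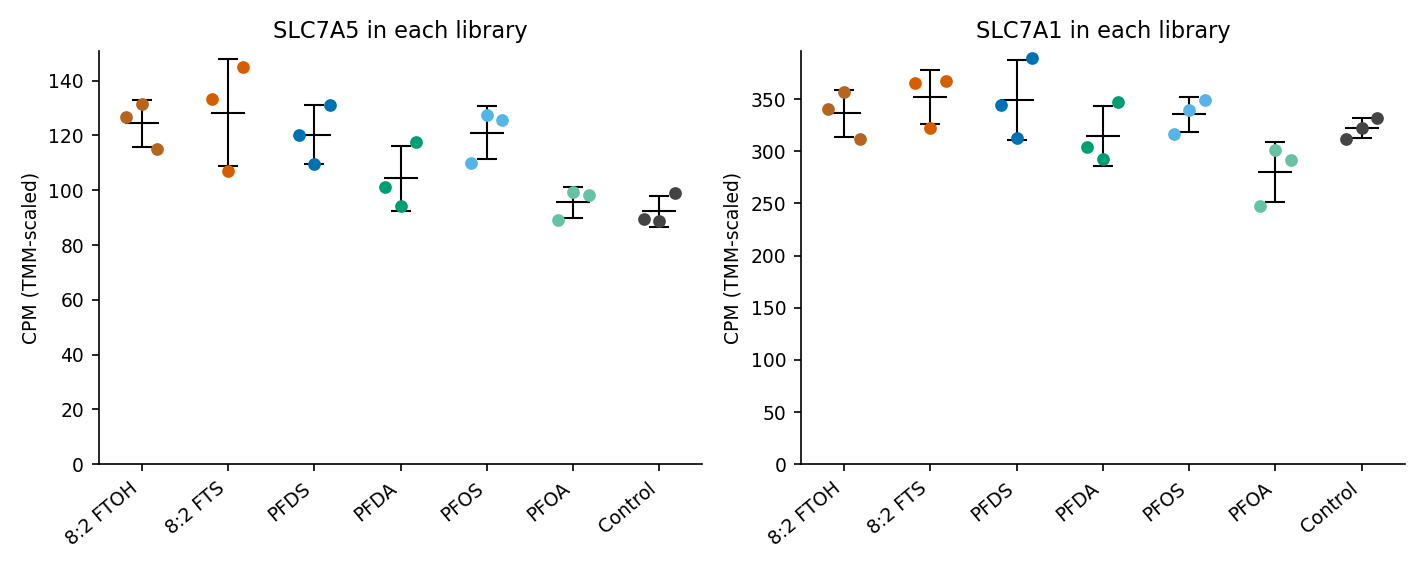
CPM of SLC7A5 (left) and SLC7A1 (right) in each library, by group, with mean ± SD over 3 libraries as black bars and both axes from 0. For SLC7A5 the libraries of 8:2 FTOH, 8:2 FTS, PFDS and PFOS lie at 107 to 145 CPM, above the control libraries at 88.6 to 98.9 CPM, and for SLC7A1 the PFOA libraries lie at 247 to 301 CPM, below the control libraries at 312 to 332 CPM.

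The log2 fold change of SLC7A5 with 8:2 FTS was 0.48 (SE 0.09, edgeR quasi-likelihood test, Benjamini-Hochberg adjusted p = 0.0160 over the 24879 genes tested). It was 1 of 10 members called, where 0.0844% of all genes were called and 0.0121% were called higher, and 3 members had an unadjusted p under 0.05 (7.77% of all genes). The 6 compounds share the same 3 control libraries, so their fold changes are given side by side and not counted against each other. For 8:2 FTOH the log2 fold change was 0.43 (SE 0.09, adjusted p = 0.0584), for PFOS 0.39 (adjusted p = 0.156), for PFDS 0.38 (adjusted p = 0.141), for PFDA 0.18 (adjusted p = 0.602) and for PFOA 0.05 (adjusted p = 0.905). None of these 5 passed. Pooled with equal weight, the 6 compounds had SLC7A5 at 116 CPM on average against 92.3 CPM in control (log2 fold change 0.32, SE 0.07, adjusted p = 0.0301), the 1 member called where 0.35% of all genes were called and 0.0442% of all genes were called higher, and the 1 with an unadjusted p under 0.05 (9.98%). In the test of any difference among the 7 groups it was again the 1 member called (adjusted p = 0.0207), where 0.0322% of genes were, and 3 members had an unadjusted p under 0.05 (5.91%).

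**Figure D3:**
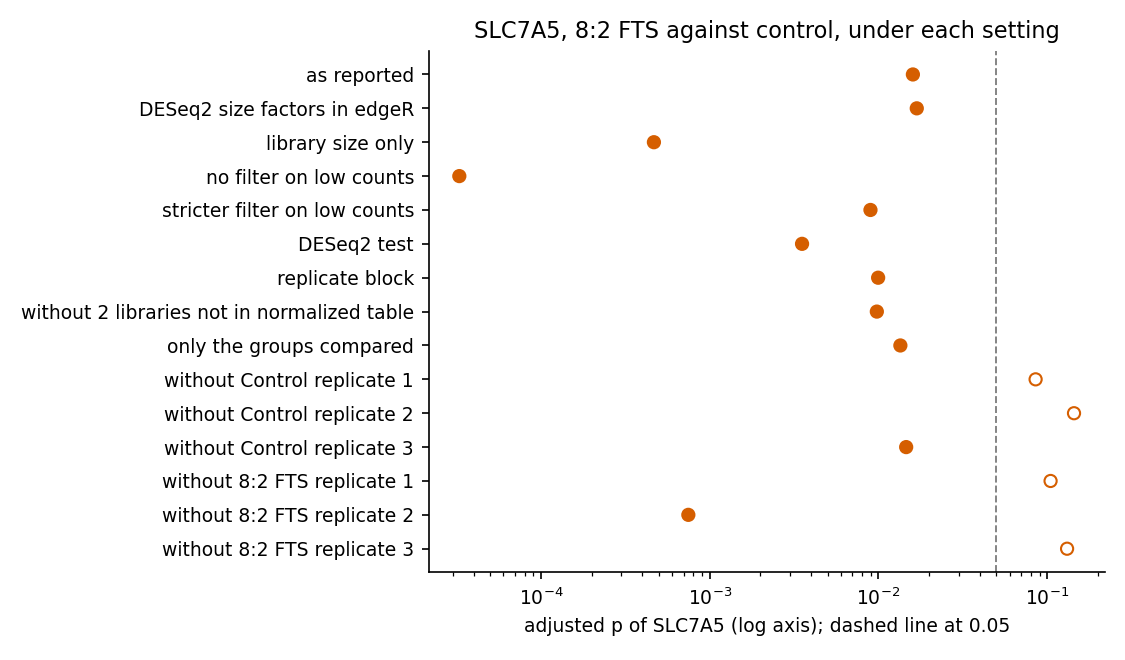
Adjusted p (log axis) of SLC7A5 for 8:2 FTS against control as reported and under 14 alternatives, with filled circles below 0.05 and open circles above. The call is lost when control replicate 1 or 2, or 8:2 FTS replicate 1 or 3, is left out.

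The 8:2 FTS call rests on few libraries. Its adjusted p was 0.0853 without control replicate 1, 0.144 without control replicate 2, 0.105 without 8:2 FTS replicate 1 and 0.131 without 8:2 FTS replicate 3, while the log2 fold change stayed between 0.38 and 0.59 over the 6 fits that leave out 1 library. The 6 compounds together no longer passed without control replicate 1 (adjusted p = 0.236) or control replicate 2 (adjusted p = 0.433). Any difference among the groups no longer passed without control replicate 2 (adjusted p = 0.0893) or PFOA replicate 1 (adjusted p = 0.0504). For 8:2 FTOH the call changed the other way: it passed with the DESeq2 test (adjusted p = 0.0131) and without both libraries of high mitochondrial share, control replicate 3 and 8:2 FTOH replicate 3 (log2 fold change 0.54, adjusted p = 0.0398). For PFOS and PFDS it passed when scaled by library size only (adjusted p = 0.0164 and 0.0307). The near-identical copies SLC7A5P1 and SLC7A5P2 had 0 counts in all 21 libraries. Reads that map to several places were not counted, so the level of SLC7A5 is in part uncertain. Of its exon bases, 5.7% overlap ENSG00000260466 on the other strand, which had few reads (mean 2.6). Reads in that overlap were counted for neither gene.

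The 250 bases before the RefSeq start of SLC7A5 (GRCh38.p14, chr16:87869508-87869757, minus strand) are shown because it is the gene that passed. Capitals mark CACGTG, the E-box bound by MYC proteins, whose first base is 130 bases before the start.
SLC7A5: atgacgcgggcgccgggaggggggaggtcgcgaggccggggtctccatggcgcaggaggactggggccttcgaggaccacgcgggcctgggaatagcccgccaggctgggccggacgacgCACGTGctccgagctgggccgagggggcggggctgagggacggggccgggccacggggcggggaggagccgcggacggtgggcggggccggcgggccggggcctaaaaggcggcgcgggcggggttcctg
Among promoters of 300 bases (250 before to 50 after the start), 7.26% of 35116 hold CACGTG, and 3 of the 13 promoters of the 8 members with an entry do, the others belonging to SLC1A5 and SLC43A1. A match is a description of the letters and not of binding.

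A second motif searched on both strands was TGATGNAA, the composite element through which C/EBP and ATF proteins act on amino acid response genes. It lies in 4 of the 13 promoters, each from a different member, and in 3.62% of all promoters, and the 4 windows of 30 bases are shown with the match in capitals, which in SLC1A4 is on the other strand. The windows of SLC1A4, SLC1A5 and SLC38A1 belong to RefSeq starts that lie inside the span of the gene in the count table.
SLC7A1: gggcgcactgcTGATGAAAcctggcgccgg
SLC1A4: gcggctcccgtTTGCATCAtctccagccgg
SLC1A5: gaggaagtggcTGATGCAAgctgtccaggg
SLC38A1: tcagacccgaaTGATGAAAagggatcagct
The window of SLC7A1 is at chr13:29595663-29595692 (minus), of SLC1A4 at chr2:64989381-64989410 (plus), of SLC1A5 at chr19:46784893-46784922 (minus) and of SLC38A1 at chr12:46266502-46266531 (minus). None of these 4 genes passed the test with any compound. TGACGTCA, the cAMP response element, was found in 0 of the members' 13 promoters and in 1.85% of all.

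The heavy chain SLC3A2, which SLC7A5 and SLC7A6 need to reach the membrane, was at 72.5 ± 1.54 CPM with 8:2 FTS and 76.7 ± 1.72 CPM with 8:2 FTOH, against 63.4 ± 1.80 CPM in control (SD, n = 3 each). Libraries of both compounds were above all controls, yet SLC3A2 did not pass for any compound in edgeR (lowest adjusted p = 0.224, for 8:2 FTOH, log2 fold change 0.28), while DESeq2 called it for 8:2 FTOH (adjusted p = 0.0285). SLC3A1, the heavy chain of another light chain, averaged 3.69 CPM with 8:2 FTOH and 3.10 CPM in control (log2 fold change 0.21). Its largest log2 fold change against control was 0.56, with PFDA, and it did not pass with any compound either.

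SLC7A1 (ENSG00000139514; chromosome 13, 29509414 to 29595688, minus strand) was at 247, 301 and 291 CPM with PFOA, against 312, 323 and 332 CPM in control. Every PFOA library was below every control library, but the log2 fold change of -0.20 (SE 0.08) did not pass (adjusted p = 0.395). With 8:2 FTS it was 366, 322 and 368 CPM and with PFDS 345, 313 and 389 CPM, ranges that overlap the control. Its fold changes with the other 5 compounds lay between -0.03 and 0.13 on the log2 scale.

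The 2 other cationic transporters were scarce. SLC7A2 (ENSG00000003989; chromosome 8, 17497088 to 17570573) averaged 8.75 to 10.0 CPM in the compound groups and 10.4 CPM in control, and its largest difference from control was with 8:2 FTOH (log2 fold change -0.22, SE 0.17, adjusted p = 0.813). Its PFOA libraries, at 9.51, 8.96 and 9.15 CPM, were below all control libraries, at 10.3, 10.1 and 10.8 CPM. SLC7A3 (ENSG00000165349; chromosome X, 70925579 to 70931125) had 14 to 67 reads a library and the widest spread, 3.85-fold between its highest and lowest library. It was at 2.39, 2.17 and 2.97 CPM with 8:2 FTOH, against 0.80, 1.68 and 2.14 CPM in control (log2 fold change 0.68, SE 0.35, adjusted p = 0.657), with a 95% interval of the fold from 0.98 to 2.60.

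Neither exchanger of small neutral amino acids passed with any compound. SLC1A5 (ENSG00000105281; chromosome 19, 46774883 to 46788594, minus strand) averaged 42.4 CPM with 8:2 FTOH and 41.7 CPM with 8:2 FTS, against 35.9 CPM in control (log2 fold changes 0.26 and 0.22, adjusted p = 0.525 and 0.613). The 3 libraries of 8:2 FTOH were uneven, at 46.4, 47.3 and 33.4 CPM, and the last of them is the library with the high mitochondrial share. SLC1A5 shares 23.4% of its exon bases with ENSG00000275719 on the other strand. Reads in the overlap were counted for neither gene, so the level of SLC1A5 is in part uncertain. The few reads of ENSG00000275719 (mean 2.6) do not show how many SLC1A5 lost. SLC1A4 (ENSG00000115902; chromosome 2, 64988477 to 65023865, plus strand) was at 57.8, 56.8 and 61.2 CPM with PFOA, against 67.6, 61.8 and 65.0 CPM in control, without overlap (log2 fold change -0.14, adjusted p = 0.643).

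Of the sodium-coupled carriers, SLC38A1 (ENSG00000111371; chromosome 12, 46183063 to 46270017) averaged 397 to 444 CPM in the compound groups and 411 CPM in control. As fitted over all libraries, no log2 fold change of it against control exceeded 0.11 in size, and with its 3017 to 11721 reads a library its 95% interval with 8:2 FTOH covered -0.18 to 0.17. SLC38A2 (ENSG00000134294; chromosome 12, 46358188 to 46372773) averaged 211 CPM with 8:2 FTOH, all 3 libraries above the controls, and 217 CPM with PFDS, against 194 CPM in control. Neither passed (log2 fold changes 0.12 and 0.16, adjusted p = 0.763 and 0.896).

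SLC43A1 (ENSG00000149150; chromosome 11, 57484534 to 57515780) was at 4.06, 5.03 and 4.90 CPM with PFDA and 4.09, 6.23 and 3.76 CPM with 8:2 FTS, against 3.46, 3.48 and 3.19 CPM in control. Libraries of 8:2 FTS, PFDA, PFOS and PFOA were all above the controls, on 33 to 137 reads a library. None of its fold changes passed, the largest against control being 0.47 for 8:2 FTS on the log2 scale (SE 0.23, adjusted p = 0.641). SLC7A6 (ENSG00000103064; chromosome 16, 68264516 to 68301823) averaged 18.7 to 21.1 CPM in the compound groups and 21.6 CPM in control, and its log2 fold changes against control lay between -0.22 and -0.03. Its levels are uncertain, because 44.4% of its exon bases overlap SLC7A6OS and 11.1% overlap ENSG00000279649, both on the opposite strand. The 2 shares may hold the same bases, and reads in an overlap were not counted.

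**Figure D4:**
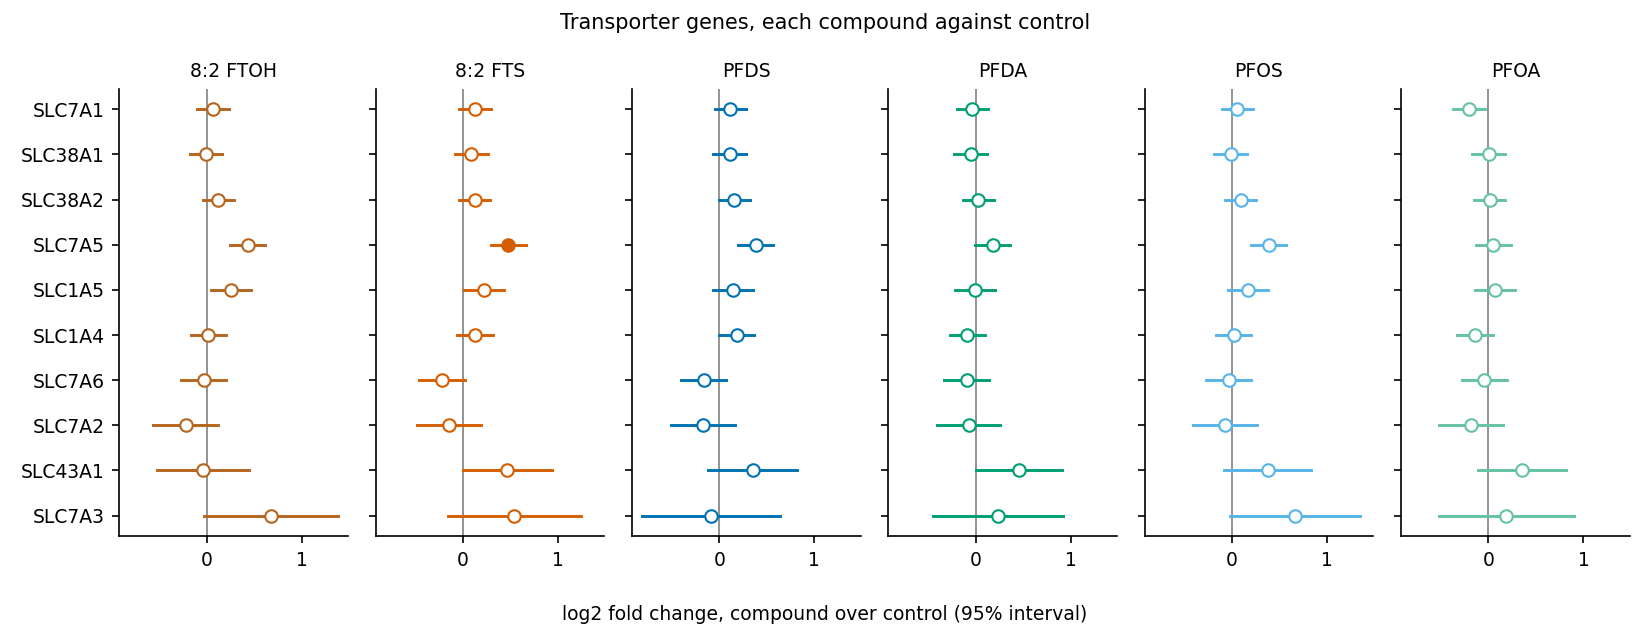
Log2 fold change of each of the 10 genes, compound over control, with 95% intervals, 1 panel per compound and genes ordered by control TPM. Only SLC7A5 with 8:2 FTS is filled (adjusted p under 0.05), and intervals widen towards SLC43A1 and SLC7A3, the genes with few reads.

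Over all 10 genes, 0 were called for 8:2 FTOH (0.0322% of all genes were), PFDS (0.0241%), PFDA (0.00804%), PFOS (0.0241%) and PFOA (0.0322%). At an unadjusted p under 0.05 edgeR had 2 of the 10 for 8:2 FTOH (7.83% of all genes) and 1 each for PFDS (5.58%), PFDA (8.43%), PFOS (6.83%) and PFOA (10.1%). DESeq2 called 1 for 8:2 FTOH, SLC7A5, and 0 for those 4. Its share of all genes called is not given here. Over the 8 alternatives that leave out no single library, DESeq2 among them, 6 to 107 genes were called for 8:2 FTOH. Libraries above all controls without overlap were seen for 3 members with 8:2 FTOH (5.95% of all genes), 2 with 8:2 FTS (6.64%), 1 with PFDS (3.72%), 1 with PFDA (7.92%), 2 with PFOS (6.62%) and 1 with PFOA (7.45%). Libraries below all controls were seen for 3 members with PFOA, SLC7A1, SLC7A2 and SLC1A4 (8.46% of all genes), and 0 with 8:2 FTOH (6.98%), 8:2 FTS (7.17%), PFDS (4.53%), PFDA (7.85%) and PFOS (7.41%). The median log2 fold change of the 10 genes was 0.04 with 8:2 FTOH, 0.13 with 8:2 FTS, 0.13 with PFDS, -0.02 with PFDA, 0.07 with PFOS and 0.01 with PFOA. The median of all genes tested was within 0.01 of zero in each.

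Between compounds, 8 pairs were compared for each of the 10 genes, and 0 of these 80 differences passed. The share of all genes called was 0.00402% for PFDS against PFOS and for 8:2 FTOH against PFOA and 0% for the other 6 pairs. In edgeR 9 of the 80 had an unadjusted p under 0.05, and DESeq2 called 0. The other members among the 9 were SLC1A4 for PFDS against PFDA (log2 fold change 0.27), SLC7A3 for PFDS against PFOS (-0.75, without overlap) and SLC43A1 for 8:2 FTS against 8:2 FTOH (0.51), beside SLC7A5 and SLC7A1. There were 2 such members for 8:2 FTOH against PFOA (6.52% of all genes), PFDS against PFDA (5.59%) and PFOS against PFOA (4.9%), 1 for PFDA against PFOA (2.93%), PFDS against PFOS (4.37%) and 8:2 FTS against 8:2 FTOH (3.26%), and 0 for 8:2 FTS against PFOS (2.86%) and PFDS (4.1%). SLC7A5 averaged 124 ± 8.49 CPM with 8:2 FTOH and 95.5 ± 5.52 CPM with PFOA (SD, n = 3 each), with no overlap of libraries, and this pair, a fluorotelomer alcohol against a carboxylic acid, had the lowest adjusted p of the 80 (log2 fold change 0.38, SE 0.09, adjusted p = 0.195). For the head group, SLC7A5 averaged 121 ± 9.75 CPM with PFOS and 95.5 CPM with PFOA (log2 fold change 0.34, 95% interval 0.15 to 0.52, adjusted p = 0.958), and 120 ± 10.7 CPM with PFDS and 104 ± 11.9 CPM with PFDA (0.20, interval 0.02 to 0.39, adjusted p = 0.890).

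For chain length, the difference in SLC7A5 between PFDS and PFOS was -0.004 on the log2 scale (95% interval -0.19 to 0.18) and that between PFDA and PFOA was 0.13 (interval -0.06 to 0.31). Neither passed. The difference between both chain length effects passed for 0 of the 10 genes, as for 0% of all genes (0 of the 10 and 3.49% of all genes at an unadjusted p under 0.05, and 0 of the 10 by DESeq2). Between 8:2 FTS and the other compounds, the log2 fold change of SLC7A5 was 0.04 over 8:2 FTOH, 0.09 over PFOS and 0.09 over PFDS, with intervals that reach from -0.14 to 0.28 in all. SLC7A1 showed its largest pair differences against PFOA: 0.26 for 8:2 FTOH (SE 0.08, adjusted p = 0.600) and 0.26 for PFOS (SE 0.08, adjusted p = 0.958), both with libraries that did not overlap. Libraries of SLC38A2 did not overlap either for 8:2 FTOH against PFOA (log2 fold change 0.11, edgeR adjusted p = 0.849). The share of all genes without overlap is not given here for pairs of compounds. A test of any difference among the 6 compounds, added after the data were seen, called 0 of the 10 (SLC7A5, adjusted p = 0.271), where 0 of all genes were called, and 3 of the 10 had an unadjusted p under 0.05, against 4.18% of all genes.

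**Figure D5:**
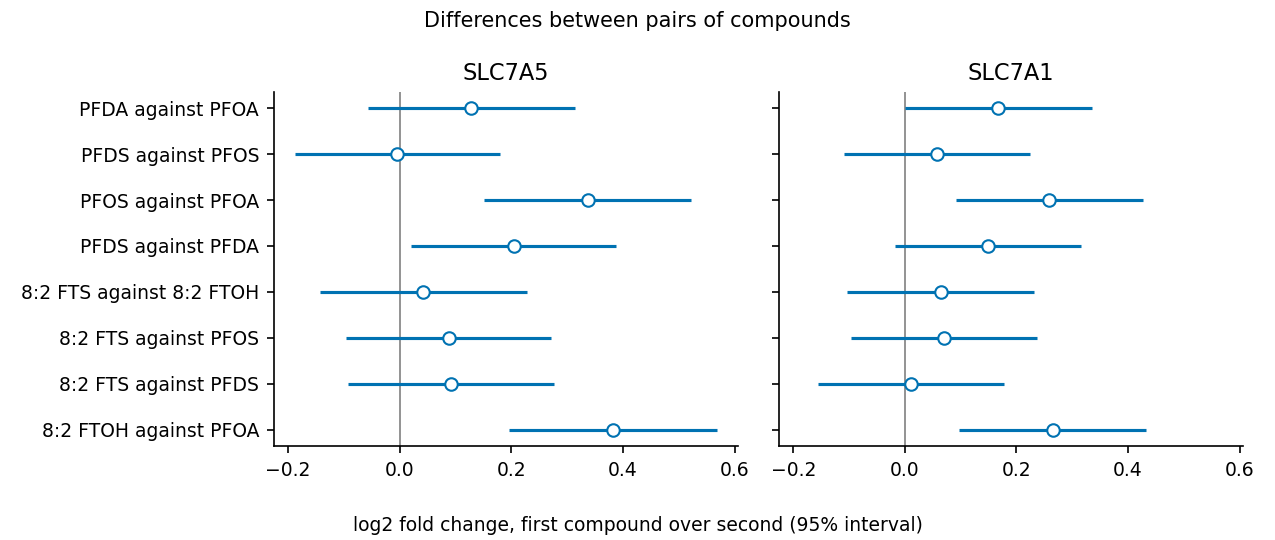
Log2 fold change between the compounds of 8 pairs, first over second, for SLC7A5 (left) and SLC7A1 (right), with 95% intervals; none passed an adjusted p of 0.05. The differences of PFOS and 8:2 FTOH against PFOA (0.34 and 0.38 for SLC7A5) lie farthest from zero.

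Among 27 other amino acid transporter genes, 19 were expressed highly enough to test. For single compounds against control, edgeR called only SLC7A11, the light chain of the exchanger that imports cystine for glutathione. SLC7A11-AS1, an antisense gene, overlaps it, so its level is in part uncertain. It rose to 17.5 ± 2.13 CPM with 8:2 FTOH, 12.7 ± 1.09 CPM with 8:2 FTS and 12.4 ± 1.30 CPM with PFOS, against 6.29 ± 1.82 CPM in control (SD, n = 3 each; log2 fold changes 1.48, 1.02 and 0.97; edgeR adjusted p = 3.21e-07, 0.00143 and 0.00328). The calls were lost without control replicate 1 for 8:2 FTS (adjusted p = 0.0506), and without control replicate 1 or PFOS replicate 2 for PFOS (adjusted p = 0.131 and 0.0560). Of all genes, 0.0322% were called for 8:2 FTOH, 0.0844% for 8:2 FTS and 0.0241% for PFOS. Of the 19 genes, 1 was also called for the 6 compounds together (0.35% of all genes) and for 8:2 FTOH against PFOA (0.00402%). The same count held for any difference among the 7 groups (0.0322%). DESeq2 called 1 of the list each for 8:2 FTOH, 8:2 FTS, PFDS, PFOS and the 6 compounds together. The next by rule, SLC38A3, SLC6A9 and SLC36A4, had log2 fold changes of -0.53, 0.22 and 0.10 for the 6 compounds together and did not pass.

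The list of amino acid response genes holds the factor ATF4 and genes of the program it turns on when amino acids are scarce. It also holds EIF2AK1, EIF2AK2, EIF2AK3, EIF2AK4, GCN1 and IMPACT, which act upstream of ATF4. Of its 20 tested genes, 0 were called by edgeR or DESeq2 for any single compound. At an unadjusted p under 0.05 edgeR had 0 to 9 higher and 0 to 4 lower, against 5.58% to 10.1% of all genes in either direction. For the 6 compounds together 7 were higher and 2 lower at an unadjusted p under 0.05, against 9.98% of all genes. STC2, a secreted stanniocalcin, had a log2 fold change of 0.47 (adjusted p = 0.125), ASNS, which makes asparagine, 0.34 (adjusted p = 0.167), and CEBPB, a C/EBP factor, 0.38 (adjusted p = 0.324). The RNA of ATF4 itself was at 151 CPM with the 6 compounds and 153 CPM in control. Of 30 genes of amino acid sensing by mTORC1 and 18 genes of enzymes that use the carried amino acids, 0 were called by either tool, and at an unadjusted p under 0.05 2 were higher and 1 lower, and 1 higher and 1 lower, for the 6 compounds together, shares near the 9.98% of all genes. LAMTOR2, a subunit of the complex that docks mTORC1 on lysosomes, had the largest shift of those the rule named, -0.29 on the log2 scale (adjusted p = 0.141).

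Across the 21 libraries, the genes whose log2 CPM varied most like that of SLC7A5 among 11156 genes of at least 10 CPM were RPS6KA2 (Pearson r = 0.88, Spearman rho = 0.87), BLTP3A (0.88 and 0.88), PHGDH (0.87 and 0.87), RIMS3 (0.83 and 0.81) and PSAT1 (0.83 and 0.81). PHGDH and PSAT1 encode enzymes of serine synthesis. Without the 2 libraries farthest from the median of SLC7A5, r ranged from 0.78 for PSAT1 to 0.92 for RPS6KA2. Of the other members, SLC7A1 was the closest (r = 0.81, rank 13 of those genes), followed by SLC1A5 (0.75), SLC38A2 (0.74), SLC1A4 (0.68) and SLC38A1 (0.54), while SLC7A6 had r = -0.28. SLC7A3, SLC7A2 and SLC43A1, below 10 CPM on average and so not ranked, had r = 0.39, 0.07 and -0.09. These values describe libraries that share depth, scaling and treatment groups and carry no test.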

How the data were processed

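The deposited table of raw counts for 62656 genes in 21 libraries was used for every test. Per the submitters' processing notes, reads were checked with FastQC and MultiQC, aligned with HISAT2 to hg38, sorted with SAMtools, counted with featureCounts and analysed with DESeq2. The command line per the file headers shows featureCounts 2.0.1 with no strand, read-pair or multi-mapping option. The library kit was stranded, so overlapping genes can lose reads. A normalized table deposited by the authors gives a signal for 37476 genes in 19 libraries, and 100% of its values came back to whole reads within 0.01 once multiplied by a library factor, so the fit without the other 2 libraries serves as the test on recovered reads. Genes passing filterByExpr of edgeR 4.0.16 (24879) were scaled by TMM and fitted over all 21 libraries with a robust quasi-likelihood model in R 4.3.3 (biological coefficient of variation 0.112), with p-values adjusted over genes (Benjamini-Hochberg, threshold 0.05) separately in 17 comparisons. TPM were computed from counts and lengths in the table. Members, lists and tests were chosen with earlier results of these data known. Named genes were all members, SLC3A2 and SLC7A11, and from each list the called genes plus up to 3 with the smallest p for the 6 compounds together. The labels mention triplicate treatment but not whether the 3 libraries are separate cultures, so p-values cover only the variation among these libraries, possibly technical. Alternatives were other size factors, library size only, no filter, a stricter filter (mean of 1 CPM, 10 counts in 3 libraries), DESeq2 1.42.0, only the groups compared, a replicate block, and leaving out libraries. The procedure was tested on simulated data. Promoter sequences are from RefSeq (GRCh38.p14), with 8 of the 10 members matched by symbol. Python 3.11.15, pandas 2.3.3 and matplotlib 3.10.9 made the tables and figures.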

Additional observations from a re-analysis of the deposited data

How the results depend on the processing

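In all 29 alternative fits, 0 calls were made of a member other than SLC7A5. The count of members called was 1 (SLC7A5) in place of 0 for 8:2 FTOH under library size only, no filter, the stricter filter, DESeq2, the replicate block (adjusted p = 0.0260), only the groups compared, and without both libraries absent from the authors' normalized table. The same held for PFDS under library size only and no filter, for PFOS under those and only the groups compared, and for 8:2 FTOH against PFOA under no filter and only the groups compared. With no filter, the count of all genes called was 107 of 45863 for 8:2 FTOH, 86 for PFDS and 52 for PFOS. It was 23 for 8:2 FTOH against PFOA. As reported, these counts were 8, 6, 6 and 1 of 24879. With library size only, 8 genes were called for 8:2 FTOH, 13 for PFDS and 9 for PFOS. The causes of the added SLC7A5 calls were not tested. For 8:2 FTS the 8 alternatives that leave out no single library kept the call, with adjusted p from 3.29e-05 to 0.0169. Leaving out single libraries gave 0 to 1 calls for 8:2 FTOH, 8:2 FTS, the 6 compounds together and any difference among the groups. Deviations from the group means were compared between libraries of different groups. Of same-numbered pairs, 16 of 63 had a correlation over 0.1 (median 0.004, range -0.434 to 0.481). Of differently numbered pairs, 41 of 126 did (median -0.003, range -0.46 to 0.413). The means are of 3 libraries each, which ties these correlations to each other, so they cannot exclude pairing by number. The replicate block changed only the 8:2 FTOH call among the counts of members called. The count of all genes called was 21 for 8:2 FTS (4 to 41 without single libraries, 20 to 126 otherwise), 87 for the 6 compounds together (4 to 217, and 54 to 286) and 8 for any difference (4 to 53, and 4 to 269). Scaling by library size moved the median of all genes by at most 0.068 on the log2 scale. Of 2440 refitted fold changes of members, 131 changed sign, none of them called either way, with at most 0.235 as the reported size. Of these, 69 lie in pair and interaction comparisons of members other than SLC7A5 and SLC7A1 with unadjusted p over 0.05. The others follow as log2 fold changes. With library size only, 8:2 FTOH gave 0.0078 for SLC7A6, 0.035 for SLC38A1 and 0.0043 for SLC43A1, PFDA 0.031 for SLC7A1, 0.057 for SLC1A5 and 0.011 for SLC38A1, PFOS 0.0065 for SLC7A6 and 0.028 for SLC38A1, and PFOA 0.024 for SLC7A6. With no filter SLC38A1 was -0.0045 for PFOA. With the stricter filter SLC38A1 was 0.0014 for 8:2 FTOH and SLC1A5 0.0033 for PFDA. Without both absent libraries SLC38A1 was 0.045 for 8:2 FTOH and 0.0052 for PFOS, SLC7A3 0.22 for PFDS, and SLC7A5 -0.0075 for 8:2 FTS against 8:2 FTOH. Leaving out single libraries gave these ranges. For 8:2 FTOH they were -0.13 to 0.072 for SLC7A6, -0.046 to 0.092 for SLC1A4, -0.032 to 0.024 for SLC38A1 and -0.20 to 0.056 for SLC43A1. SLC38A1 ran from -0.025 to 0.17 for 8:2 FTS, and SLC7A3 from -0.39 to 0.22 for PFDS. For PFDA they were -0.10 to 0.013 for SLC7A1, -0.19 to 0.027 for SLC7A2, -0.068 to 0.54 for SLC7A3, -0.15 to 0.0092 for SLC7A6, -0.082 to 0.052 for SLC1A5 and -0.029 to 0.072 for SLC38A2. For PFOS they were -0.14 to 0.040 for SLC7A2, -0.089 to 0.067 for SLC7A6, -0.049 to 0.081 for SLC1A4 and -0.058 to 0.042 for SLC38A1. For PFOA they were -0.11 to 0.50 for SLC7A3, -0.10 to 0.059 for SLC7A6, -0.056 to 0.029 for SLC38A1 and -0.041 to 0.059 for SLC38A2. For the 6 compounds together they were -0.15 to 0.0047 for SLC7A6 and -0.011 to 0.057 for SLC1A4. For SLC7A5 they were -0.071 to 0.071 for PFDS against PFOS, -0.0081 to 0.20 for 8:2 FTS against PFDS, -0.0027 to 0.20 for 8:2 FTS against PFOS and -0.053 to 0.15 for 8:2 FTS against 8:2 FTOH. SLC7A1 ran from -0.027 to 0.14 for PFDS against PFOS and from -0.073 to 0.10 for 8:2 FTS against PFDS. Depth limits SLC7A3 and SLC43A1 most, at 14 to 67 and 33 to 137 reads a library.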
